A study of Mus musculus with 38 samples.

Results

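The enzymes and carriers that turn sugar into pyruvate and lactate, or run that route backwards, were followed through DSS colitis in mouse intestinal epithelium with and without hexokinase 2. The 39 genes were taken by symbol from the 46078 genes in the deposited count tables. They cover sugar transporters, every step of glycolysis after the hexokinase reaction, lactate handling, the enzymes that make and remove fructose 2,6-bisphosphate, the pyruvate dehydrogenase complex and its kinases, the mitochondrial pyruvate carrier, and gluconeogenesis. The hexokinases themselves were not among them.

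RNA sequencing was done on 38 libraries of isolated intestinal epithelial cells from C57BL/6 mice, each library carrying its own animal number, whereas the series text speaks of colon tissue. In KO mice (genotype label Hk2dIEC), a floxed Hk2 allele was removed by Cre recombinase driven by the Villin promoter, which is active in epithelial cells of the intestine. Their WT controls were littermates carrying floxed Hk2 (genotype label Hk2 flox/flox) without an excision, so every animal of both groups carried the floxed allele. Colitis was induced in co-housed male mice aged 10 to 12 weeks with 1.5% (w/v) dextran sodium sulfate (DSS), a polymer that injures the colonic epithelium, in the drinking water. Epithelium was taken after 3 or 7 days of DSS, and day 0 animals were untreated. The labels give ages of 9 to 11 and of 86 to 92 weeks for the basal phenotype, without telling which of these applied to the day 0 animals. There were 4 WT and 5 KO animals on day 0, 7 WT and 8 KO on day 3, and 7 of each on day 7. All p-values measure the spread between these animals.

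Glycolysis splits a phosphorylated hexose into pyruvate, and phosphofructokinase is its main control point; fructose 2,6-bisphosphate, made by the PFKFB enzymes, activates it. Pyruvate is then reduced to lactate by lactate dehydrogenase and exported through monocarboxylate transporters, or enters mitochondria through the MPC carrier to be oxidised by pyruvate dehydrogenase, which the PDK kinases switch off. Colonocytes are known for burning butyrate, and the expression of glycolytic genes is known to respond to hypoxia through HIF-1 and to the inflammatory state of a tissue.

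Levels are given as CPM, a gene's counts relative to the total of its library after scaling by trimmed mean of M-values (TMM) over all 38 libraries. A gene was called changed at a Benjamini-Hochberg adjusted p under 0.05 in edgeR's quasi-likelihood test fitted on all genes. Library totals ran from 10503352 to 60644284 counts, and 3 counts corresponded to 0.0495 to 0.286 CPM. Together the 39 genes took 0.291 to 0.873% of a library's counts. Hk2, the deleted gene, was at 254 to 449 CPM in WT and 33.1 to 118 CPM in KO on day 0, at 97.0 to 221 CPM in WT and 68.4 to 435 CPM in KO on day 3, and at 228 to 611 CPM in WT and 56.1 to 268 CPM in KO on day 7. The value of 435 CPM belonged to the library labelled d3_KO_345, which lay above every WT day 3 library and so went against its label. The 268 CPM on day 7 belonged to the library labelled d7_KO_420, which lay within the WT day 7 range, above its lowest library; the next KO library had 195 CPM. Library d0_KO_32 had 45.6% of its counts in mitochondrial ribosomal RNA genes and a TMM factor of 0.487, and library d3_WT_381 a TMM factor of 0.682 and 1355 CPM summed over 9 small-intestine enterocyte markers. The epithelial markers (8 genes, Epcam, Cdh1 and Vil1 among them) summed to 9493 to 19086 CPM over all libraries, with no marker at 0. Day 0 libraries carried another name series than those of days 3 and 7, so day and library series cannot be told apart in comparisons with day 0. In bulk epithelium, fewer cells of a kind and less RNA per cell cannot be told apart either.

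The promoters of the genes whose levels moved furthest between day 3 and day 7 in both genotypes are shown first, since the values below turn on them. Pfkfb3 (ENSMUSG00000026773, chromosome 2, 11471433 to 11554077, minus strand) encodes the PFKFB form with the strongest kinase over phosphatase activity, and Slc16a3 (ENSMUSG00000025161, chromosome 11, 120948480 to 120960868, plus strand) encodes the lactate exporter MCT4; these were the members that rose most. Eno3 (ENSMUSG00000060600, chromosome 11, 70657202 to 70662513, plus strand) encodes the muscle form of enolase, and Pck1 (ENSMUSG00000027513, chromosome 2, 173153048 to 173159273, plus strand) the cytosolic PEP carboxykinase of gluconeogenesis; these fell most. Each window holds 250 bases before and 50 bases after a RefSeq start site on GRCm38.p6, printed 5′ to 3′ on the gene's own strand. Capitals mark ACGTG on either strand. With GCGTG it is the core of hypoxia response elements, and the E-box CACGTG is bound by factors such as MYC.
Pfkfb3 (chr2:11553880-11554179, minus strand): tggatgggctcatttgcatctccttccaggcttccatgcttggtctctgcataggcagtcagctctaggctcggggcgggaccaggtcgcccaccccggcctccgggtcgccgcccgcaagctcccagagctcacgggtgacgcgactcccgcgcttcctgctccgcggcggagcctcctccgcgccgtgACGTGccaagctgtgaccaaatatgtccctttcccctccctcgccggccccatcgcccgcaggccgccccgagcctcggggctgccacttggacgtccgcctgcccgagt
Slc16a3 (chr11:120948817-120949116, plus strand): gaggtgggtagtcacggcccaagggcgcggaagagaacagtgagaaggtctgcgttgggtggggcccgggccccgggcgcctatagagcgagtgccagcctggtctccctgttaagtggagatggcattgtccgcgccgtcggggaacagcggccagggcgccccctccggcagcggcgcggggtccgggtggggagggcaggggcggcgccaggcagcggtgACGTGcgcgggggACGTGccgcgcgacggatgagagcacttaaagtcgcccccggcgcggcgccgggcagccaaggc
Eno3 (chr11:70656926-70657225, plus strand): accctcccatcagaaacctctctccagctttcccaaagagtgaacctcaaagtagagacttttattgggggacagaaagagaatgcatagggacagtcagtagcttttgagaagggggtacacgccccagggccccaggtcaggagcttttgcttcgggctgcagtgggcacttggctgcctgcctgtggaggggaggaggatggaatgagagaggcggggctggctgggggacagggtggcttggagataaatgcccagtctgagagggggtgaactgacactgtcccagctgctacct
Pck1 (chr2:173152823-173153122, plus strand): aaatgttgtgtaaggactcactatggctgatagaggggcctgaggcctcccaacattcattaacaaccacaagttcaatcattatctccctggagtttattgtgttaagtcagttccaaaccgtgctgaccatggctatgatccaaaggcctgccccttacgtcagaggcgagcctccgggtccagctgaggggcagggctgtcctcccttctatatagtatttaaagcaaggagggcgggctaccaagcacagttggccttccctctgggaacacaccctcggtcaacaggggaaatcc
Pcx (chr19:4510222-4510521, plus strand): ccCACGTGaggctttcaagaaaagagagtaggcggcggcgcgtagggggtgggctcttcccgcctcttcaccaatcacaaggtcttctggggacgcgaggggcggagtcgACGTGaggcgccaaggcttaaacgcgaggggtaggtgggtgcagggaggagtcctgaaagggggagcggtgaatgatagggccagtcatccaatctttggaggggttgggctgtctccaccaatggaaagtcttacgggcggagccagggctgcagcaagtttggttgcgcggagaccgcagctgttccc
The last is the promoter of Pcx (ENSMUSG00000024892, chromosome 19, 4510472 to 4621752, plus strand), which encodes pyruvate carboxylase and also fell in both genotypes. It is shown because its window holds CACGTG, as does that of Pfkm, which fell in both too and is not shown. These motifs were searched on both strands in 1 promoter for each of the 39 members, and the E-box contains the first of them. ACGTG was found in 15 of the 39 and in 19.6% of 32851 RefSeq promoters of the same length, GCGTG in 22 and in 32.4%, and CACGTG in 6 and in 7.15%. Of the 6 members that rose in both genotypes 4 held ACGTG, as did 2 of the 4 that fell in both and 4 of the 16 that were called in neither. For GCGTG these numbers were 3 of 6, 1 of 4 and 12 of 16, and for CACGTG 1 of 6, 2 of 4 and 1 of 16. Of the 7 called in WT alone, 3 held ACGTG, 3 GCGTG and 1 CACGTG. Of the 4 called in KO alone, 2 held ACGTG, 3 GCGTG and 1 CACGTG. Slc16a3 held ACGTG at 2 places and Pfkfb3 at 1, and neither held GCGTG; Eno3 held GCGTG at 1 place and no ACGTG, and Pck1 held neither motif. These matches describe letters in a window and not bound sites.

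**Figure D1:**
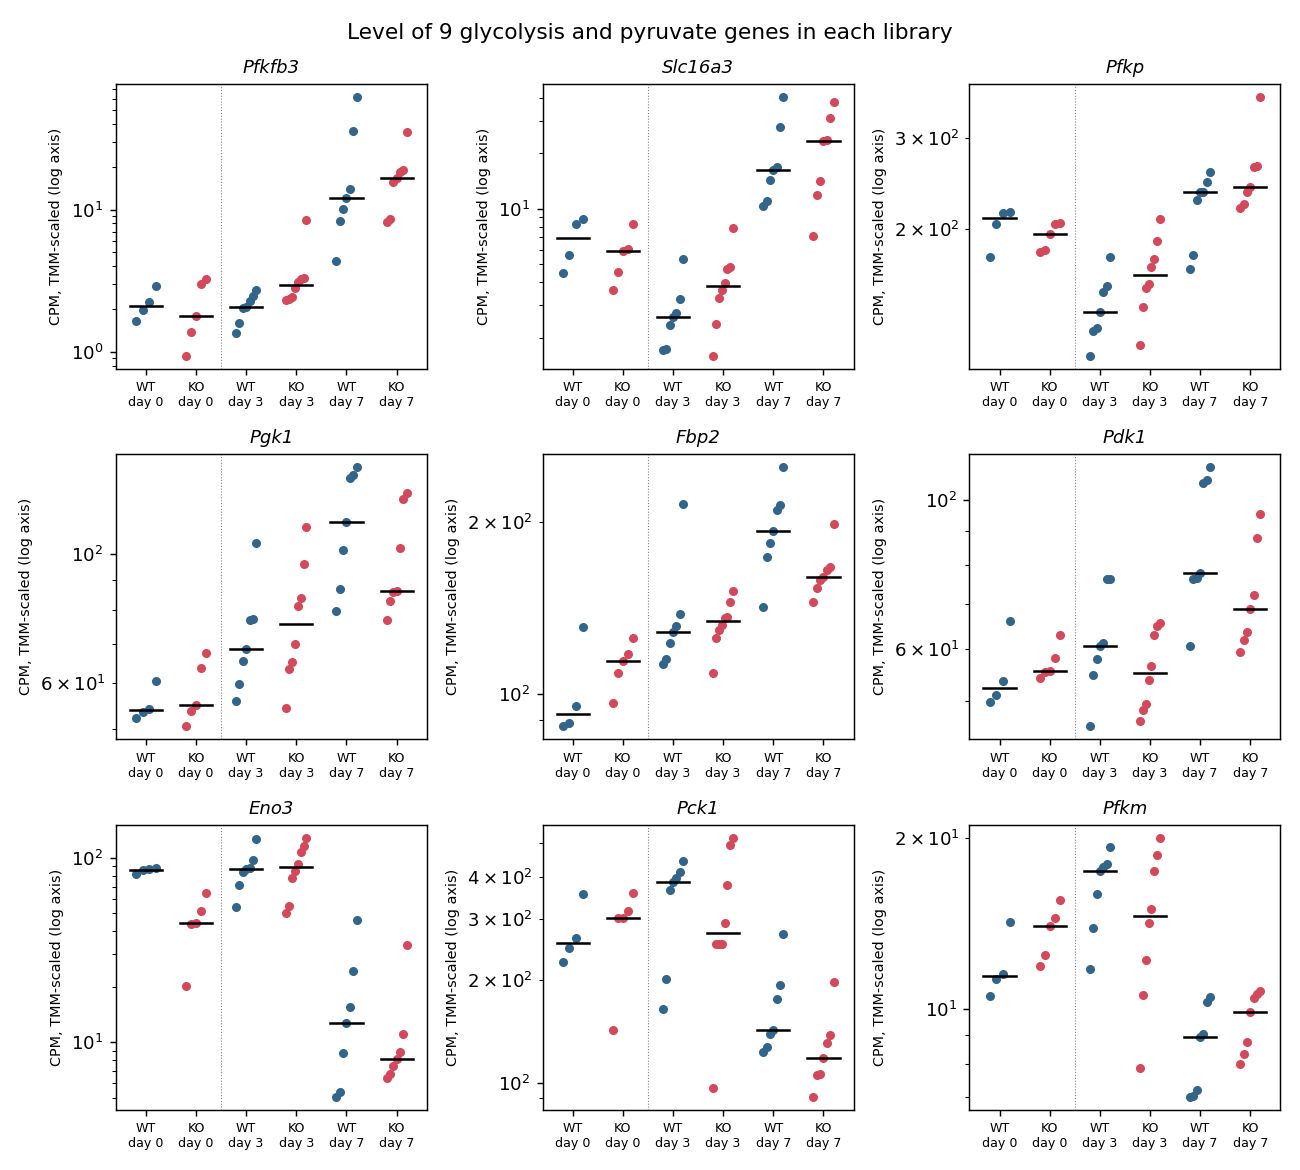
Level of 9 genes in each library, in TMM-scaled CPM on a log axis, by genotype (blue WT, red KO) and day; each point is 1 animal, the bar is the group median and the dotted line separates the 2 library series. Pfkfb3 and Slc16a3 are highest on day 7, and Eno3 lies below 46.2 CPM or at it in all 14 day 7 libraries and at 50.3 CPM or above in all 15 day 3 libraries.

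From day 3 to day 7 of DSS members of the pathway moved in both directions. In WT, 17 of the 37 members that passed the expression filter were called (45.9%), 11 higher and 6 lower, beside 19.3% of all 15541 genes tested (10.6% higher, 8.7% lower); without library d3_WT_353 the count was 11. KO epithelium had 14 of 37 called (37.8%), 7 higher and 7 lower, beside 19.3% of 15568 genes (10.5% higher, 8.83% lower); without the library labelled d3_KO_345 it was 15, 7 higher and 8 lower, and without that labelled d7_KO_420 it was 13. The median log2 fold change of the members was 0.20 in WT and 0.11 in KO, beside 0.01 and -0.01 over all genes. Called in the same direction in both genotypes were 6 members that rose (Slc16a3, Pfkp, Fbp2, Pfkfb3, Pdk1 and Pdk3) and 4 that fell (Eno3, Pfkm, Pcx and Pck1). Another 7 were called in WT alone (Eno1, Gapdh, Gpi1, Pkm and Pgk1 higher, Pdk2 and Pck2 lower) and 4 in KO alone (Tpi1 higher, Pdhb, Slc16a1 and Pfkfb4 lower), and the test of a difference between genotypes in this change called no member. Slc2a2 and Eno2 did not pass the filter: the liver and beta cell transporter Slc2a2 had 0 to 9 counts and the neuronal enolase Eno2 0 to 18 counts per library.

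**Figure D2:**
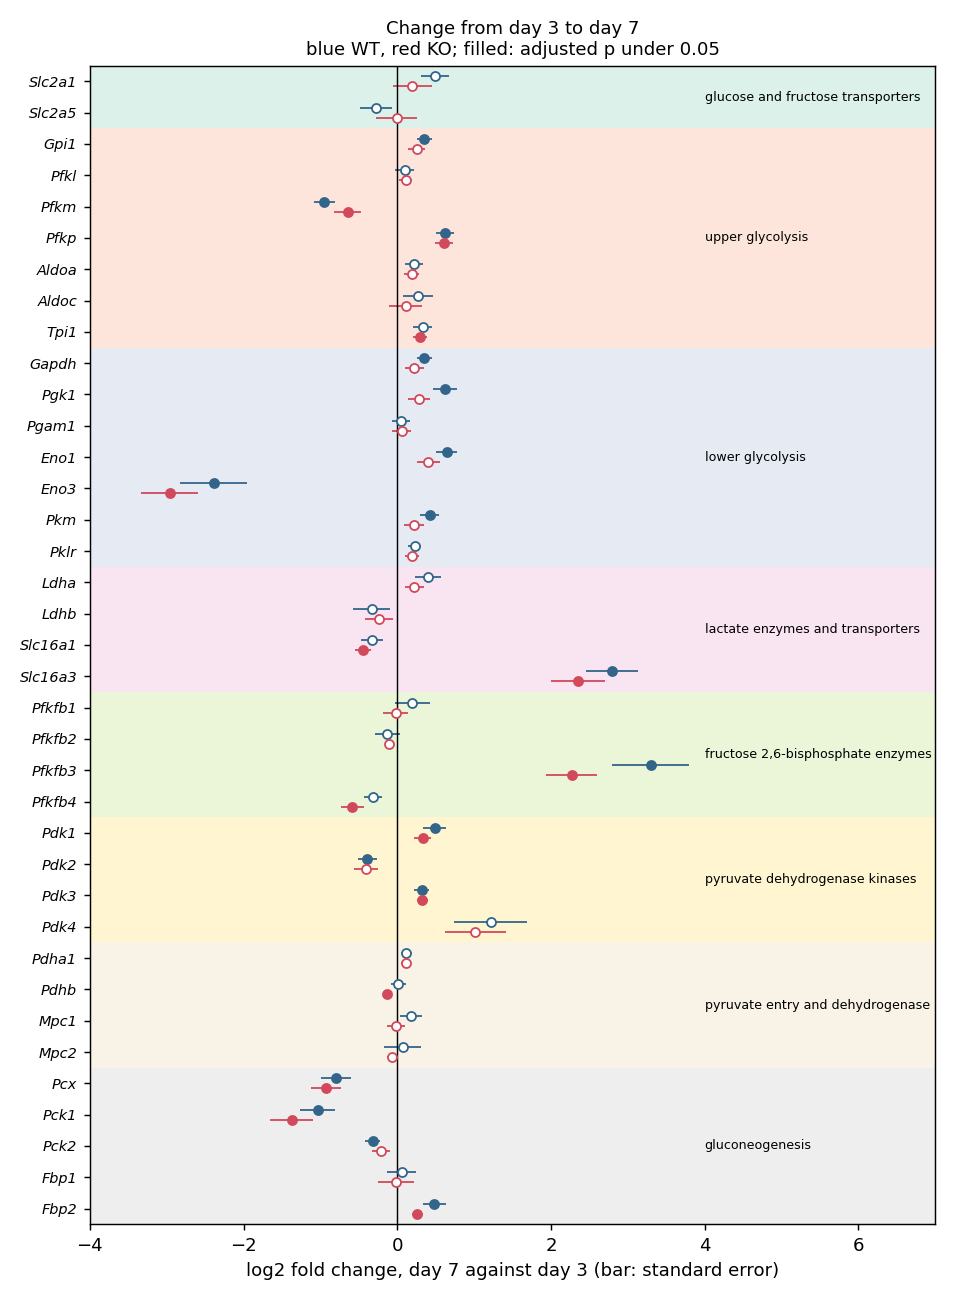
Log2 fold change from day 3 to day 7 for the 37 tested members, grouped by role, in WT (blue) and KO (red), with standard errors; filled points had an adjusted p under 0.05. Slc16a3 and Pfkfb3 stand furthest right at 2.27 to 3.30, and Eno3 furthest left at -2.39 in WT and -2.96 in KO.

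Among the members, the tested sugar transporters Slc2a1 and Slc2a5 were not called between day 3 and day 7. The carriers Slc2a3 and Slc2a4, outside the members, were called and are given below. Slc2a1, which encodes the widespread glucose carrier GLUT1, had 107 to 215 CPM (median 117) in WT day 3 and 118 to 254 CPM (median 187) in WT day 7. In KO it had 113 to 246 CPM (median 154) and 107 to 451 CPM (median 156). The groups overlapped in both genotypes, and the value of 451 CPM came from the library labelled d7_KO_420. Slc2a5, the fructose carrier GLUT5, stayed low, between 0.942 and 6.76 CPM over all libraries. Per kb of gene model, Slc2a1 took a median of 96.5 to 98.8% of the summed level of Slc2a1, Slc2a2 and Slc2a5 in each group.

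In upper glycolysis the forms of phosphofructokinase moved apart. Pfkp, the platelet form (chromosome 13, 6579768 to 6648777, minus strand), had 114 to 177 CPM (median 139) in WT day 3 and 168 to 258 CPM (median 235) in WT day 7. KO libraries had 120 to 209 CPM (median 163) and 219 to 360.2 CPM (median 241), so that all 7 KO day 7 libraries lay above all 8 of day 3, as did 6 of 7 in WT. Pfkp rose by 1.54-fold in WT (log2 0.62, SE 0.12, edgeR adjusted p = 0.0018) and 1.53-fold in KO (log2 0.61, SE 0.12, edgeR adjusted p = 0.00153). Pfkm, the muscle form (chromosome 15, 98092589 to 98132447, plus strand), went the other way. It had 11.8 to 19.3 CPM (median 17.5) in WT day 3 and 7.00 to 10.5 CPM (median 8.92) in WT day 7, without overlap. In KO the range of 8.01 to 10.8 CPM on day 7 lay within that of day 3, 7.86 to 20.1 CPM (median 14.6), because the lowest day 3 value came from the library labelled d3_KO_345. Pfkm fell 1.93-fold in WT (log2 -0.95, SE 0.14, edgeR adjusted p = 0.000228) and 1.56-fold in KO (log2 -0.65, SE 0.17, edgeR adjusted p = 0.0143). Without that library the change in KO was -0.74. The liver form Pfkl, which took the largest share of the set, was not called and had a group median between 227 and 262 CPM on every day. Per kb, the median share of Pfkm among the 3 forms went from 8.24% in WT day 3 to 3.07% in WT day 7, and from 6.09 to 3.77% in KO. For Pfkp the share went from 20.2 to 25.2% in WT and from 22.4 to 31% in KO.

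The remaining enzymes of upper glycolysis changed less. Gpi1, glucose-6-phosphate isomerase, had medians of 392.5 and 509.8 CPM on days 3 and 7 in WT and was called there; in KO it had 416 and 486.6 CPM and was not. Tpi1, triosephosphate isomerase, was called in KO alone, at 1.23-fold (log2 0.29, SE 0.09, edgeR adjusted p = 0.0358). Its log2 fold change in WT was 0.33, not called. Leaving out any 1 of 7 of the 15 libraries ended the KO call (edgeR adjusted p up to 0.0839). The aldolases Aldoa and Aldoc were called in neither genotype. Aldoa made up at least 98.6% of their summed level per kb in the median library of each group.

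In lower glycolysis the enolase gene Eno3 fell in both genotypes. Eno3 was at 54.4 to 127 CPM (median 86.8) in WT day 3 and at 5.05 to 46.2 CPM (median 12.8) in WT day 7. KO libraries had 50.3 to 129 CPM (median 89.2) and 6.38 to 33.5 CPM (median 8.15). No day 7 library of either genotype reached the lowest day 3 library of its genotype. Eno3 fell 5.24-fold in WT (log2 -2.39, SE 0.43, edgeR adjusted p = 0.00138) and 7.80-fold in KO (log2 -2.96, SE 0.37, edgeR adjusted p = 6.63e-05). Over the leave-one-out fits the log2 fold change stayed between -2.90 and -2.23 in WT and between -3.50 and -2.85 in KO. Eno1, the form found in most tissues, had 151 to 306 CPM (median 196) in WT day 3 and 252 to 405 CPM (median 326) in WT day 7, with overlap. It rose 1.56-fold in WT (log2 0.64, SE 0.14, edgeR adjusted p = 0.00522); KO medians were 236 and 298 CPM and the gene was not called there. In CPM, Eno1 lay above Eno3 in every day 3 library. The gene model has 5379 bases for Eno1 and 1739 for Eno3, so their order depended on the scaling by length. Eno1 is also among the genes named below whose levels are uncertain. Per kb of gene model, the median Eno3 share of the enolase sum on day 3 was 59.4% in WT and 55.4% in KO. On day 7 it was 10.8% and 8.23%. The lowest and highest shares on day 7 were 4.30 and 31.3% in WT and 4.76 and 27.6% in KO, below every day 3 library of either genotype (36.7 to 64.5%).

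Eno3 and Pfkm are textbook muscle forms, so markers of muscle are given beside them. Of the 5 skeletal and heart muscle markers, Myh4 had 0 counts in every library and Ckm, Tnnt3 and Actn2 were under 1 CPM in every library; with Acta1 the list summed to 17.8 to 64.9 CPM in WT day 3 and 10.4 to 61.6 CPM in WT day 7, and to 12.9 to 71.6 CPM and 10.1 to 35.4 CPM in KO. The smooth muscle markers (5 genes) summed to 9.54 to 14.5 CPM in WT day 3 and 10.0 to 19.8 CPM in WT day 7, and to 9.69 to 14.1 CPM and 9.19 to 21 CPM in KO, with Acta2, Myh11, Actg2 and Des under 1 CPM. The Eno3 gene model overlaps no other gene in GENCODE M21, whereas that of Pfkm overlaps Senp1 on the opposite strand, and counting ignored strand. The gene models of Pfkfb3 (Gm10851, Gm37975), Pfkp (Pitrm1) and Pcx (Lrfn4) overlap other genes too.

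The other changes of lower glycolysis were smaller. Pgk1, phosphoglycerate kinase, had 56.0 to 104 CPM (median 68.5) in WT day 3 and 79.7 to 141 CPM (median 113) in WT day 7. In KO it had 54.4 to 111 CPM (median 75.7) and 77.1 to 127 CPM (median 86.3). The ranges overlapped in both genotypes, and Pgk1 was called in WT alone (1.54-fold, log2 0.62, SE 0.16, edgeR adjusted p = 0.0114). Pkm, the pyruvate kinase of most tissues, was also called in WT alone (1.34-fold, log2 0.42, SE 0.12, edgeR adjusted p = 0.0252), a call that ended without any 1 of 5 of the 14 libraries. Gapdh, the glyceraldehyde-3-phosphate dehydrogenase often used as a reference gene, was called higher in WT, from a median of 551 to 730 CPM. The liver and red cell pyruvate kinase Pklr and the phosphoglycerate mutase Pgam1 were called in neither genotype. Pkm made up 91.4 to 94.5% of pyruvate kinase RNA per kb in the median library of each group. Reads that map to several places were not counted, so levels of members with processed pseudogenes, Gapdh, Pgk1, Eno1, Aldoa, Tpi1, Pgam1, Pkm and Ldha among them, are uncertain.

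In lactate handling the exporter Slc16a3 rose while the dehydrogenase genes were not called. Slc16a3 was at 1.72 to 5.32 CPM (median 2.59) in WT day 3 and at 10.4 to 40.5 CPM (median 16.2) in WT day 7. KO libraries had 1.598 to 7.90 CPM (median 3.80) and 7.14 to 37.8 CPM (median 23.4). All 7 WT day 7 libraries lay above all of WT day 3, and 6 of 7 did so in KO, where the highest day 3 value came from the library labelled d3_KO_345. Slc16a3 rose 6.94-fold in WT (log2 2.80, SE 0.34, edgeR adjusted p = 8.16e-05) and 5.11-fold in KO (log2 2.35, SE 0.35, edgeR adjusted p = 0.000227). Slc16a1, which encodes the carrier MCT1 and also takes up butyrate in colonocytes, had 312 to 475 CPM (median 398) in KO day 3 and 266 to 369.98 CPM (median 295) in KO day 7. It fell there by 0.45 on the log2 scale (SE 0.10, edgeR adjusted p = 0.00413), with overlap, and had medians of 454.7 and 365.6 CPM in WT, where it was not called. Slc16a1 stayed the more abundant of the pair per kb: the median share of Slc16a3 in the pair went from 0.507 to 3.23% in WT and from 0.710 to 6.39% in KO. Ldha and Ldhb, the lactate dehydrogenase subunits, were called in neither genotype, and Ldha took at least 98.5% of the pair per kb in each group's median library.

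Among the 4 PFKFB genes, Pfkfb3 rose in both genotypes, in WT by more than any other member. Its level was 1.35 to 2.72 CPM (median 2.08) in WT day 3 and 4.32 to 62.1 CPM (median 12.1) in WT day 7. In KO it was 2.30 to 8.40 CPM (median 2.96) and 8.20 to 35.1 CPM (median 16.7). WT day 7 lay wholly above WT day 3, and in KO 6 of 7 day 7 libraries lay above the whole of day 3, again with the library labelled d3_KO_345 as the highest of its group. Pfkfb3 rose 9.82-fold in WT (log2 3.30, SE 0.50, edgeR adjusted p = 0.000366) and 4.82-fold in KO (log2 2.27, SE 0.33, edgeR adjusted p = 0.00018). Without that library the KO change was 2.59 on the log2 scale. Pfkfb4, the form best known from testis and tumours, had 28.8 to 34.8 CPM (median 32.2) in KO day 3 and 14.3 to 36.1 CPM (median 20.8) in KO day 7, with overlap. It fell there by 0.58 on the log2 scale (SE 0.15, edgeR adjusted p = 0.0134); WT medians were 31.7 and 23.8 CPM and the gene was not called. Pfkfb1, the liver form, and Pfkfb2, the heart form, were called in neither. Per kb, the median share of Pfkfb3 among the 4 genes went from 2.86 to 17.6% in WT and from 3.48 to 20.5% in KO, while Pfkfb4 stayed the most abundant of them in the median (60.3 and 45.3% in WT, 60.1 and 44.5% in KO).

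**Figure D3:**
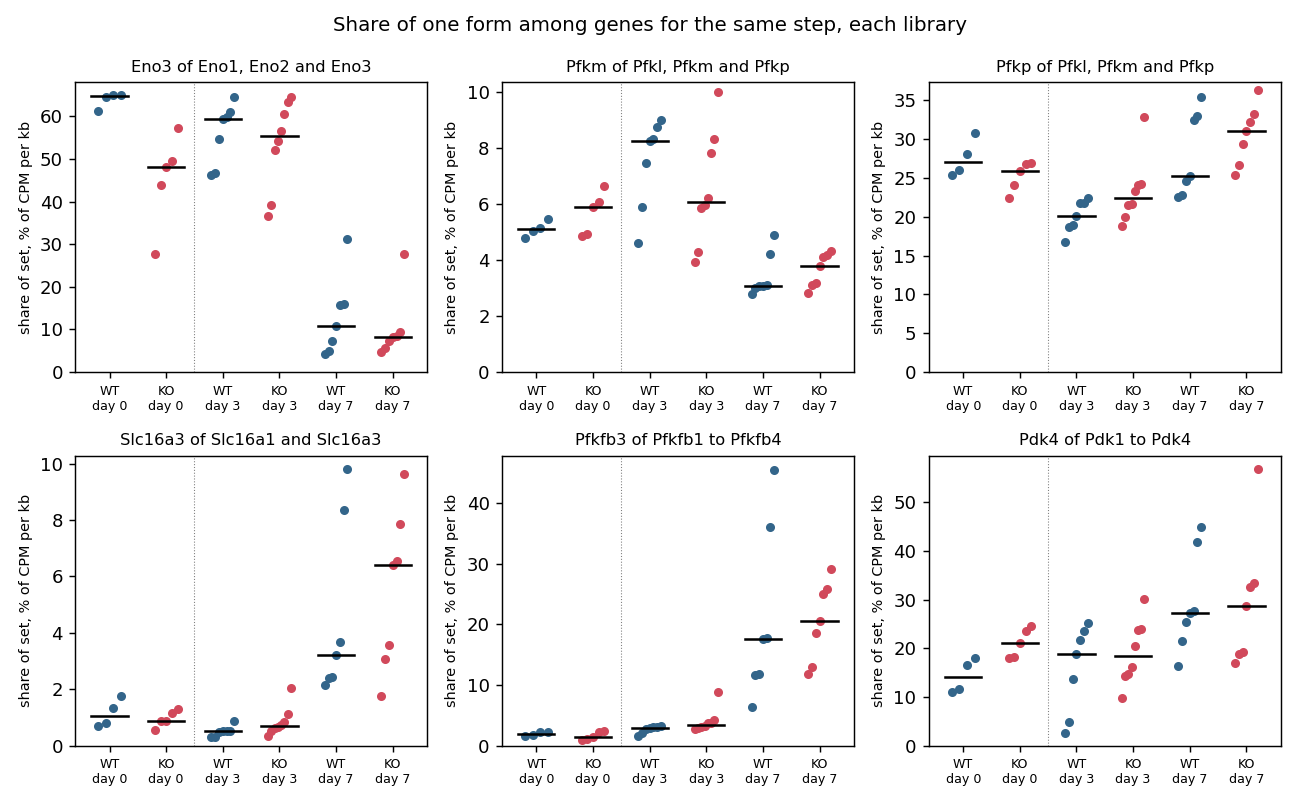
Share of 1 form in the summed level per kb of gene model of the genes for the same step, in each library, with group medians as bars (blue WT, red KO; dotted line between the library series). The Eno3 share drops from medians of 59.4 and 55.4% on day 3 to 10.8 and 8.23% on day 7, while Slc16a3 and Pfkfb3 gain share. The size of the Eno3 share is uncertain, because it depends on the scaling by length and Eno1 reads that map to several places were not counted.

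Markers of other cells moved with these rises. The 8 neutrophil markers, S100a8, S100a9, Cxcr2 and Csf3r among them, summed to 8.02 to 44.6 CPM in WT day 3 and 149 to 1105 CPM in WT day 7, and to 13.5 to 152 CPM and 124 to 1840 CPM in KO. The 7 macrophage and monocyte markers summed to 5.18 to 11.8 CPM and 21.96 to 80.9 CPM in WT, and to 6.28 to 29.5 CPM and 25.3 to 159 CPM in KO. In WT day 3 every neutrophil marker but Ly6g was under 1 CPM in each library, and none of the 8 was so in a day 7 group. The 8 lymphocyte markers summed to 5.73 to 42.1 CPM and 25.4 to 137 CPM in WT, and to 24 to 37.7 CPM and 48.2 to 118 CPM in KO. No marker of these 3 lists was at 0 throughout a group. The library with the highest neutrophil sum was also the highest for Pfkfb3 in WT day 3 (d3_WT_346), WT day 7 (d7_WT_356), KO day 3 (d3_KO_345) and KO day 7 (d7_KO_420). On day 0 this held in KO (d0_KO_60) and not in WT. Without library d7_WT_356 the Pfkfb3 change in WT was 2.74, and without the library labelled d7_KO_420 it was 2.01 in KO (log2 scale), where Slc16a3 was then at 2.16 and Fbp2 at 0.21. The part of leukocytes or of other cells in the changes of Pfkfb3, Slc16a3 and, below, Hk3 and Slc2a3 was not tested.

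The kinases that switch off pyruvate dehydrogenase did not move as a family. Pdk1, known as a target of HIF-1, had 45.9 to 76.2 CPM (median 60.5) in WT day 3 and 60.4 to 112 CPM (median 77.7) in WT day 7. KO libraries had 46.8 to 65.6 CPM (median 55.2) and 59.2 to 95.4 CPM (median 68.8), and the days overlapped in both. Pdk1 rose 1.4-fold in WT (log2 0.49, SE 0.15, edgeR adjusted p = 0.0285) and 1.26-fold in KO (log2 0.33, SE 0.11, edgeR adjusted p = 0.047); these calls ended without any 1 of 7 of 14 and 9 of 15 libraries, respectively. Pdk3 rose 1.25-fold in KO (log2 0.33, SE 0.07, edgeR adjusted p = 0.00408) and was called higher in WT too. Pdk2, the form found in most tissues, fell 1.31-fold in WT (log2 -0.39, SE 0.13, edgeR adjusted p = 0.0394). That call was lost without any 1 of 10 of the 14 libraries. In KO the log2 fold change of Pdk2 was -0.41, not called. Pdk4, the form induced by fasting and fatty acids, varied most between animals: 3.56 to 41.1 CPM in WT day 3, 22.6 to 99.0 CPM in WT day 7, 9.29 to 42.9 CPM in KO day 3 and 24.98 to 165 CPM in KO day 7. Its groups overlapped and it was called in neither genotype.

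Of the 4 genes for the step that the kinases control and for pyruvate import, 1 was called, in KO, beside 19.3% of all genes. The pyruvate dehydrogenase E1 alpha subunit gene Pdha1 and the pyruvate carrier genes Mpc1 and Mpc2 were called in neither genotype. Pdhb, the E1 beta subunit, was called lower in KO at 1.10-fold (log2 -0.14, SE 0.05, edgeR adjusted p = 0.045), a call that ended without any 1 of 11 of the 15 libraries.

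Of the 5 genes of gluconeogenesis, 3 were called lower in WT and 2 in KO, beside 8.7% and 8.83% of all genes. Fbp2 was called higher in both, beside 10.6% and 10.5%. Pck1 had 164 to 445 CPM (median 385.9) in WT day 3 and 123 to 272 CPM (median 143) in WT day 7. In KO it had 96.5 to 520.2 CPM (median 274) and 90.9 to 197 CPM (median 118). The ranges overlapped in both, and the lowest KO day 3 value was that of the library labelled d3_KO_345. Pck1 fell 2.05-fold in WT (log2 -1.04, SE 0.23, edgeR adjusted p = 0.00588) and 2.59-fold in KO (log2 -1.37, SE 0.28, edgeR adjusted p = 0.00253). Pcx, which feeds oxaloacetate into the route, had 47.4 to 107 CPM (median 80.0) in WT day 3 and 21.996 to 58.1 CPM (median 44.3) in WT day 7. KO libraries had 48.7 to 93.7 CPM (median 81.2) and 24.7 to 69.7 CPM (median 42.9); below the whole of day 3 lay 5 of 7 day 7 libraries in WT and 6 of 7 in KO. It fell 1.73-fold in WT (log2 -0.79, SE 0.20, edgeR adjusted p = 0.00998) and 1.91-fold in KO (log2 -0.93, SE 0.19, edgeR adjusted p = 0.00274). Pck2, the mitochondrial PEP carboxykinase, was called lower in WT alone (1.25-fold, log2 -0.32, SE 0.10, edgeR adjusted p = 0.0311). That call ended without any 1 of 6 of the 14 libraries. In KO the log2 fold change of Pck2 was -0.21, not called. Fbp2, the muscle form of fructose-1,6-bisphosphatase, went the other way. It had 113 to 215 CPM (median 128) in WT day 3 and 142 to 250.1 CPM (median 193) in WT day 7, with overlap set by library d3_WT_381, and 109 to 152 CPM (median 134) and 145 to 199 CPM (median 160) in KO. Fbp2 rose 1.4-fold in WT (log2 0.48, SE 0.15, edgeR adjusted p = 0.0345; lost without any 1 of 10 of 14 libraries) and 1.20-fold in KO (log2 0.26, SE 0.07, edgeR adjusted p = 0.0145). Without library d3_WT_381 the rise in WT was 0.62 on the log2 scale. The liver form Fbp1 was not called, and Fbp2 made up at least 98.5% of the pair per kb in each group's median library.

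Of 43 other genes of the pathway, 40 were tested in each genotype. In WT 9 were called higher and 5 lower (35%), beside 19.3% of all genes tested. In KO 6 were called higher and 5 lower (27.5%), also beside 19.3%. Higher in both were Hk3 and Slc2a3, the hexokinase and glucose carrier known from leukocytes, with Pygl, the liver form of glycogen phosphorylase, Pgd of the pentose phosphate pathway and Bpgm. Hk3 rose from a median of 0.105 to 1.01 CPM in WT (log2 4.87, SE 0.76, edgeR adjusted p = 0.00043) and from 0.131 to 4.14 CPM in KO (log2 3.74, SE 0.65, edgeR adjusted p = 0.000702). Its WT day 3 values, 0.0548 to 0.142 CPM, lay near the level of 3 counts given above. In WT day 7 Hk3 had 9.23 CPM in d7_WT_356 and 7.75 CPM in d7_WT_419, and 0.467 to 2.30 CPM in the others. The highest KO day 3 value, 1.56 CPM, came from the library labelled d3_KO_345. Slc2a3 went from 0.503 to 1.64 CPM in WT (log2 3.29, SE 0.69, edgeR adjusted p = 0.00364) and from 0.575 to 3.16 CPM in KO (log2 3.06, SE 0.54, edgeR adjusted p = 0.000855). Lower in both were Slc2a4, the insulin-responsive glucose carrier, the monocarboxylate carrier Slc16a7, and the pyruvate dehydrogenase phosphatases Pdp1 and Pdp2, which undo what the kinases do. Pdp2 went from 18.4 to 7.80 CPM in WT (log2 -1.24, SE 0.19, edgeR adjusted p = 0.000341) and from 19.2 to 7.34 CPM in KO (log2 -1.47, SE 0.19, edgeR adjusted p = 9.56e-05).

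Between KO and WT no member passed the test on any day. Of 37 members tested, 0 were called by edgeR's quasi-likelihood test in KO against WT on day 0, day 3 or day 7, beside 0.0335% (0.0201% higher, 0.0134% lower), 0.00647% and 0.00642% of all genes. At an unadjusted p under 0.05 there were 6 members on day 0, beside 1563 of 14944 genes, 2 on day 3, beside 1218 of 15461, and 2 on day 7, beside 2017 of 15584. DESeq2's Wald test called 4, 0 and 0 members, beside 177, 2 and 83 of the same genes. The median log2 difference of the members was 0.07, 0.03 and -0.09 on the 3 days, beside -0.00 on each over all genes. Over all days together the test called 0 of 38 members, beside 0.0209% of 19144 genes, with 3 members at an unadjusted p under 0.05, beside 2256 genes, and 0 by DESeq2, beside 19. Among the 43 other pathway genes Hk2 was the 1 called gene, lower on day 0 (4.58-fold, log2 -2.20, SE 0.30, edgeR adjusted p = 0.0331), a day on which no gene at all was called without library d0_WT_41. That no member passed does not show that the genotypes were alike.

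**Figure D4:**
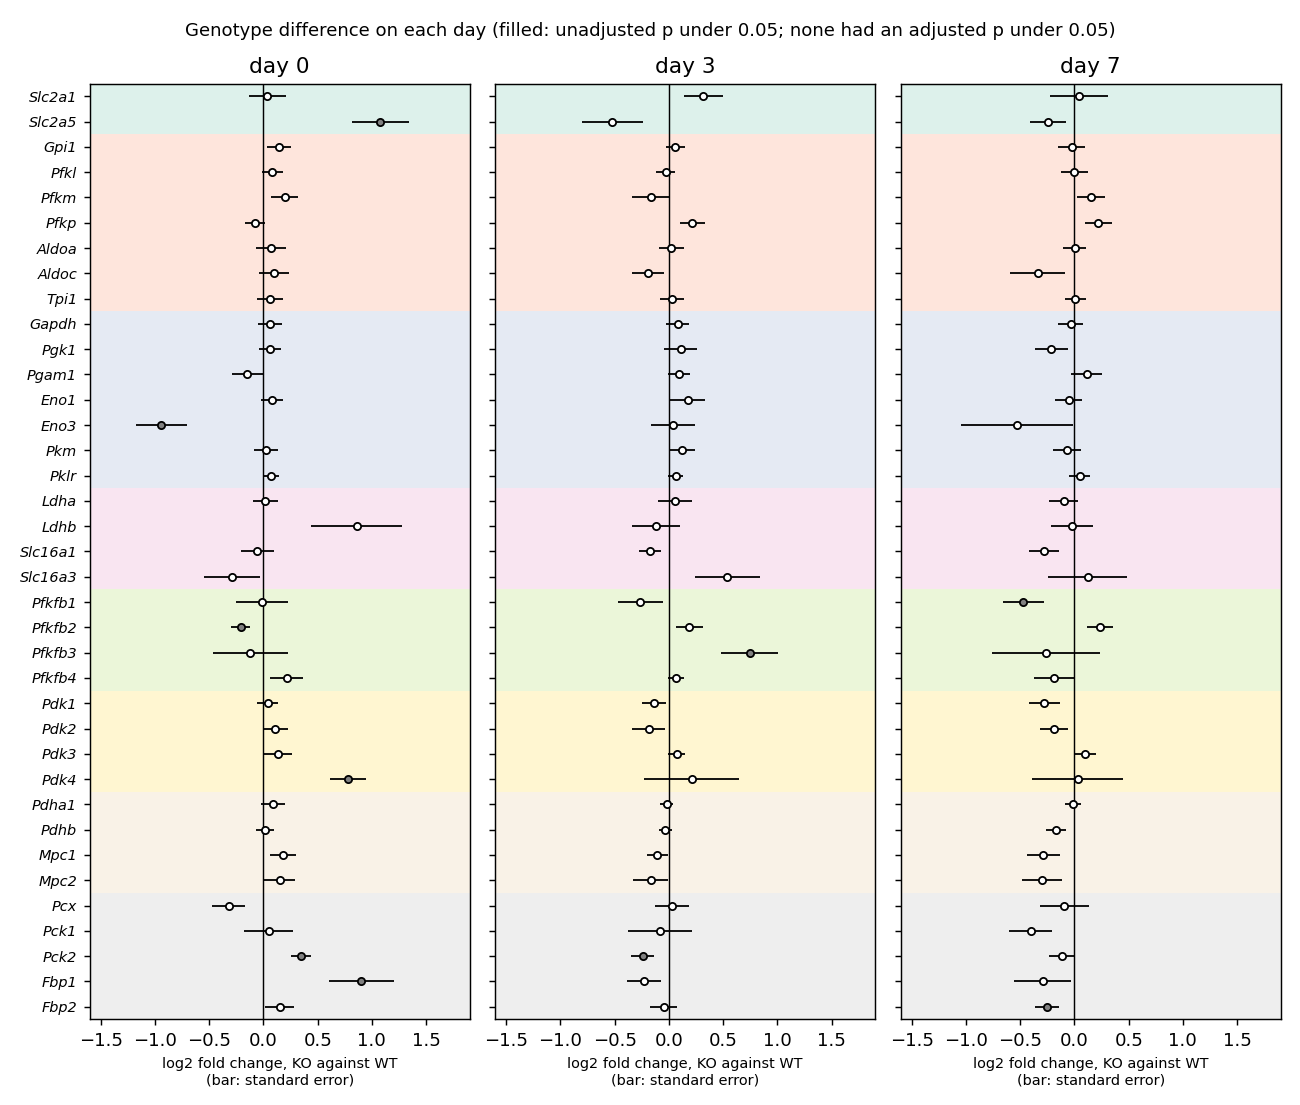
Log2 difference of KO against WT for the 37 tested members on days 0, 3 and 7, with standard errors, grouped by role as in the plot of day 7 against day 3; filled points had an unadjusted p under 0.05 and none passed after adjustment. The points furthest from 0 are Slc2a5 at 1.08 and Eno3 at -0.94, both on day 0.

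The smallest p-values for genotype were on day 0. Eno3 had 82.1, 85.7, 86.6 and 88.7 CPM in WT and 20.1, 43.9, 44.1, 51.6 and 64.8 CPM in KO. All KO values were below all WT values, the lowest being that of library d0_KO_32; the difference was -0.94 on the log2 scale (SE 0.23, edgeR adjusted p = 0.233), and -0.75 without that library. On day 3 the medians were 86.8 CPM in WT and 89.2 CPM in KO. Pdk4 had 9.71, 11.9, 14.4 and 16.5 CPM in WT and 18.97, 19.4, 23.7, 25.5 and 27.2 CPM in KO, apart in the other direction (log2 0.78, SE 0.17, edgeR adjusted p = 0.163). Slc2a5 had 0.942, 1.13, 1.58 and 1.83 CPM in WT and 2.28, 2.55, 2.93, 3.46 and 3.68 CPM in KO, likewise apart (log2 1.08, SE 0.26, edgeR adjusted p = 0.233). The genotypes were also apart on day 0 for Pklr and Pck2, both higher in KO. How many of all genes lay apart was not counted. DESeq2's Wald test, which called 4 members on that day, called Eno3, Pdk4 and Slc2a5 among them, with adjusted p of 0.0156 for Eno3, 0.00338 for Pdk4 and 0.0265 for Slc2a5. Without the expression filter edgeR called Eno3 (adjusted p = 0.0360) and Pdk4 (adjusted p = 0.0341). Over the other edgeR alternatives besides leaving out a library the adjusted p reached 0.679 for Eno3, 0.777 for Pdk4 and 0.465 for Slc2a5. On day 0 the summed small-intestine markers were 356.3 to 604 CPM in WT and 456 to 756 CPM in KO. With that sum as a covariate edgeR called no member. It had called none without the covariate, so this count cannot tell whether the sum bears on these differences. The median log2 difference of the members was 0.07 without the covariate and 0.01 with it.

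On day 3 the smallest p belonged to Pfkfb3, with a KO to WT difference of 0.74 on the log2 scale (SE 0.26, edgeR adjusted p = 0.623). It was 0.43 without the library labelled d3_KO_345. Next came Pck2, at 36.2 to 51.3 CPM (median 45.4) in WT and 28.2 to 46.4 CPM (median 38.3) in KO (log2 -0.24, SE 0.10, edgeR adjusted p = 0.623), and Pfkp (log2 0.22, SE 0.11, edgeR adjusted p = 0.623). On day 7 the smallest p was that of Pfkfb1, at 1.895 to 3.57 CPM (median 2.13) in WT and 1.33 to 2.10 CPM (median 1.83) in KO (log2 -0.47, SE 0.19, edgeR adjusted p = 0.34). Fbp2 (log2 -0.26, SE 0.11, edgeR adjusted p = 0.359) and Pck1 (log2 -0.40, SE 0.20, edgeR adjusted p = 0.392) followed, and the genotypes overlapped in all of these. Over all days Slc16a1 (log2 -0.19, SE 0.07, edgeR adjusted p = 0.359), Pfkfb1 (log2 -0.29, SE 0.12, edgeR adjusted p = 0.363) and Pfkp (log2 0.15, SE 0.07, edgeR adjusted p = 0.405) had the smallest p.

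Whether the change from day 3 to day 7 differed between genotypes was tested as an interaction. It called 0 of 37 members and 0% of 16371 genes in edgeR, with 0 members and 440 genes at an unadjusted p under 0.05 and 0 of either called by DESeq2. The smallest p was again that of Pfkfb3, whose rise was smaller in KO by 1.01 on the log2 scale with an SE of 0.59 (difference -1.01, edgeR adjusted p = 1), and the difference was -0.45 without library d7_WT_356. Pgk1 (-0.32, SE 0.22) and Pfkm (0.32, SE 0.22) came next, both with an edgeR adjusted p of 1. The members called in 1 genotype alone are therefore not shown to differ between genotypes.

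The comparisons with untreated epithelium are those where day and library series cannot be told apart. Mitochondrial ribosomal RNA genes took 7.08 to 13.8% of counts in WT day 0 and 6.25 to 45.6% in KO day 0, against 0.352 to 3.95% in all libraries of days 3 and 7, and the part of this difference in the results was not tested. Day 3 against day 0 called 17 of 37 members in WT (12 higher, 5 lower), beside 46% of 17152 genes (20.4% higher, 25.6% lower), and 13 of 37 in KO (10 higher, 3 lower), beside 46.3% of 16010 (22.6% higher, 23.7% lower). The WT count was 11 without library d0_WT_41 and 10 without d0_WT_43 or d0_WT_46. Day 7 against day 0 called 29 of 38 in WT (22 higher, 7 lower), beside 56.9% of 17428 genes (27.8% higher, 29.2% lower), and 27 of 37 in KO (19 higher, 8 lower), beside 54.6% of 16367 (27.3% in each direction). Both comparisons of a genotype share its day 0 libraries. The median log2 fold change of the members was 0.24 and 0.16 on day 3 and 0.44 and 0.32 on day 7 in WT and KO, beside 0.03, 0.01, 0.01 and 0.01 over all genes.

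Some members differed between day 0 and day 3. Day and library series cannot be told apart in these differences, and the labels do not tell the age of the day 0 animals. Gapdh had 289 to 341 CPM (median 308) in WT day 0 and 273 to 357 CPM (median 334) in KO day 0, below every later library of its genotype. It was 1.80-fold higher on day 3 in WT (log2 0.85, SE 0.12, edgeR adjusted p = 6.27e-05) and 1.84-fold in KO (log2 0.88, SE 0.13, edgeR adjusted p = 3.88e-05), and 2.31-fold and 2.15-fold higher on day 7. Pdk2 had 17.9 to 25.3 CPM in WT day 0 and 19.998 to 24.8 CPM in KO day 0, and was 2.53-fold higher on day 3 in WT (log2 1.34, SE 0.12, edgeR adjusted p = 1.04e-06) and 2.07-fold in KO (log2 1.05, SE 0.18, edgeR adjusted p = 0.000194). Slc16a3 was lower on day 3 than on day 0 in WT (log2 -1.32, SE 0.29, edgeR adjusted p = 0.00235) and higher on day 7 (log2 1.48, SE 0.38, edgeR adjusted p = 0.00482). Its day 0 values were 4.49, 5.64, 8.29 and 8.83 CPM in WT and 3.64, 4.55, 5.92, 6.06 and 8.23 CPM in KO. Pfkp likewise was lower on day 3 than on day 0 in WT (log2 -0.53, SE 0.12, edgeR adjusted p = 0.00293), without overlap.

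Pfkfb3 was at 1.64, 1.98, 2.25 and 2.89 CPM in WT day 0 and at 0.939, 1.37, 1.78, 2.98 and 3.27 CPM in KO day 0. It was 9.20-fold higher on day 7 in WT (log2 3.20, SE 0.69, edgeR adjusted p = 0.00168) and 8.28-fold in KO (log2 3.05, SE 0.41, edgeR adjusted p = 3.31e-05), and was not called on day 3 in either. All 4 PDK genes were called higher on day 7 than on day 0 in both genotypes. Of all genes, 27.8% in WT and 27.3% in KO were called higher. Pdk4 was 4.13-fold higher in WT (log2 2.04, SE 0.37, edgeR adjusted p = 0.000414) and 2.44-fold in KO (log2 1.29, SE 0.43, edgeR adjusted p = 0.0215). The KO value for Pdk4 was 0.75 on the log2 scale when the library labelled d7_KO_420 was left out. Pfkfb4 and Pcx were lower than on day 0 on both later days in WT. Pfkfb4 had log2 fold changes of -0.65 and -0.96 on days 3 and 7 in WT and of -0.79 and -1.37 in KO, each called by edgeR. Pcx had -0.70 and -1.49 in WT, both called, and -1.27 on day 7 in KO, where it was not called on day 3. Eno3 was 5.25-fold lower on day 7 than on day 0 in WT (log2 -2.39, SE 0.48, edgeR adjusted p = 0.00101) and 3.90-fold lower in KO (log2 -1.96, SE 0.41, edgeR adjusted p = 0.00125). On day 3 Eno3 was called higher than on day 0 in KO alone (log2 0.99, SE 0.26, edgeR adjusted p = 0.00638), from the low KO day 0 values given above.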

How the data were processed

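Gene counts of 38 RNA-seq libraries were deposited by the authors as 76 tables, 1 for each of 2 lanes. Per the file headers, the authors made the counts with featureCounts 1.6.2 from read pairs, ignoring strand and without counting reads that map to several places; per the submitters' processing notes, Trim Galore, STAR, featureCounts 1.5.2 and GRCm38 were used. Gene ends matched GENCODE M21 for 33 of the 39 members, and 20 of the 39 overlapped another gene, whose reads cannot be told apart without strand. Here the lanes were summed (lowest correlation between lanes 0.989, on log counts). Depth was 10503352 to 60644284 counts per library; 3 counts, taken as the limit of detection, correspond to 0.0495 to 0.286 CPM and cover counting error only.

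Groups came from the labels. In R 4.3.3, edgeR 4.0.16 was run on the libraries of each comparison with filterByExpr by group, TMM scaling, glmQLFit and glmQLFTest, and Benjamini-Hochberg adjustment over all genes; a gene was called at an adjusted p under 0.05. The genotype-by-day test used the 4 groups of days 3 and 7. Alternatives were DESeq2 1.42.0 (its size factors in edgeR, and its Wald test), lane 1 alone, no filter, a minimum mean CPM of 1, all 38 libraries in 1 model, sums of small-intestine or immune markers as a covariate, each library left out in turn, and, added after seeing the data, leaving out the 3 libraries that stand apart. The scripts were tested on simulated data. Promoters came from RefSeq on GRCm38.p6, 1 for each of the 39 members.

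Members, gene lists and tests were chosen with earlier results of these data known. Fold changes are given for up to 8 called members per direction in each comparison and for the 3 smallest p-values between genotypes; single libraries are given for 16 members. Values of Slc2a1, Pfkl and Gpi1 and of other members named outside this rule were chosen after they were seen. Forms of 1 enzyme were compared as shares of CPM per kb of gene model, without a test.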

Additional observations from a re-analysis of the deposited data

Results flagged for a closer look

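In 11 of the 96 combinations of a group and 1 of 16 members, the highest or lowest library lay further from its neighbour than Dixon's critical value allows; chance gives this in about 1 in 20 groups. The 11 values came from 6 libraries.

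The library labelled d7_KO_420 accounted for 4 of them: Pfkfb3 at 35.1 CPM, Fbp2 at 199 CPM and Pdk4 at 165 CPM were the highest of the group, and Pck2 at 23.2 CPM the lowest. Library d3_WT_381 accounted for 3, each the highest of its group: Slc16a3 at 5.32 CPM, Fbp2 at 215 CPM and Pfkfb1 at 3.73 CPM. The library labelled d3_KO_345 had the highest Pfkfb3 of its group, at 8.40 CPM. Library d7_KO_421 had the highest Eno3, at 33.5 CPM, and library d7_KO_367 the highest Pfkp, at 360.2 CPM. Library d0_KO_32 had the lowest Pck1, at 142 CPM.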

How the results depend on the processing

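No fold change of a named member reversed its sign, and no paired analysis was possible because no animal number is shared between groups. Between genotypes the members called on day 0 rose from 0 to 4 with DESeq2's Wald test and to 2 without a filter. Over all genes, day 0 gave 5 calls, and 177 with DESeq2, 52 without a filter, 2 with the small-intestine covariate, 0 with the immune covariate and 8 without the 3 libraries that stand apart. Day 3 gave 1 call, 2 with DESeq2 and 0 at a mean CPM of at least 1. Day 7 gave 1 call, 83 with DESeq2, 2 without a filter, 0 at a mean CPM of at least 1 and 38 with all 38 libraries in 1 model. All days together gave 4 calls, 19 with DESeq2, 1 at a mean CPM of at least 1 and 2 from lane 1 alone. The cause of these shifts was not tested. Leaving out 1 library gave 0 to 37 calls over all genes on day 0, 0 to 1 on day 3, 1 to 2 on day 7 and 3 to 7 over all days. It gave 11 to 20 members called between days 3 and 7 in WT and 10 to 21 between days 0 and 3 in WT. Without 1 library, 97 calls on single members no longer passed and 1267 values kept their side; under the other alternatives 19 no longer passed, 5 passed newly and 648 kept theirs. Pdhb in KO (adjusted p = 0.391 with all 38 libraries in 1 model) and Pdk1 in KO (0.0681 from lane 1 alone) were among them. In the comparisons with day 0, Slc16a1 in KO on day 3 had an adjusted p of 0.191 and Ldhb in KO on day 7 one of 0.0731 without the libraries that stand apart. Depth limits Slc2a2 and Eno2, with at most 9 and 18 counts per library.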

Other observations

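Among other genes of glucose use, 5 rose and 4 fell from day 3 to day 7 in both genotypes, and those beyond Hk3, Slc2a3 and Pdp2 had smaller changes or lower levels. Slc2a4, whose product GLUT4 is known from muscle and fat, was at 0.603 to 2.54 CPM in WT day 3 and 0.237 to 0.652 CPM in WT day 7, and at 0.369 to 1.76 CPM and 0.182 to 0.302 CPM in KO. It fell by 1.78 on the log2 scale in WT (edgeR adjusted p = 0.00201) and by 2.12 in KO (edgeR adjusted p = 0.000235). Pygl, which breaks down glycogen, rose 3.02-fold in WT (edgeR adjusted p = 0.019) and 2.62-fold in KO (edgeR adjusted p = 0.00741), and the ranges of the days overlapped. Bpgm, which makes 2,3-bisphosphoglycerate, rose by 0.61 and 0.53 on the log2 scale, and Pgd by 0.50 and 0.37. The phosphatase gene Pdp1 fell by 0.72 in WT and 1.06 in KO, and the carrier gene Slc16a7 by 0.79 and 0.69. Hk2 itself was called higher in WT alone (log2 0.92, SE 0.22, edgeR adjusted p = 0.00771), and the genotype-by-day test did not call it (log2 -0.98, SE 0.47, edgeR adjusted p = 1).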
